A study of Homo sapiens with 12 samples.

Results

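The genes described here are 35 genes of the SREBP pathway and of cholesterol synthesis, uptake, storage and efflux, out of 58735 genes in each of the deposited expression tables. They were chosen by name, through their GENCODE 29 symbols and Ensembl identifiers. RNA sequencing had been performed on 12 libraries of SK-BR-3, a human breast cancer cell line with high levels of the HER2 receptor, in 4 groups of 3. SK-BR-3 were the parental cells. SK/EPI were their epirubicin-resistant derivative, obtained by prolonged exposure to rising concentrations of this anthracycline. SK/EPI-siBCRP were SK/EPI cells transfected with a small interfering RNA (siRNA) against BCRP, the ABC transporter encoded by ABCG2, and SK/EPI-siNC had received a control siRNA, both for 48 h with a lipid reagent. All groups therefore carry the background of 1 cell line, the resistant cells are 1 derived line, and the silencing rests on 1 siRNA duplex, which the study's supplement names siBCRP #1.

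Sterol regulatory element binding proteins (SREBPs) are transcription factors made as membrane proteins of the endoplasmic reticulum. When sterols are low, the escort protein SCAP carries them to the Golgi, where proteases release the active factor, and when sterols are high the INSIG proteins retain SCAP and its cargo. SREBF2 encodes the factor best known for cholesterol synthesis genes and SREBF1 the factors best known for fatty acid synthesis genes. INSIG1 is itself an SREBP target, so that its mRNA is often read as a measure of pathway activity. The liver X receptors (LXRs) answer to oxidized sterols and raise transporters that export cholesterol.

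Each library held between 15830381 and 20545811 reads on genes. Values are FPKM, fragments normalized for exon length and sequencing depth, and differences are given on the log2(FPKM + 1) scale, which understates the change of weakly expressed genes. A gene is called when limma with Benjamini-Hochberg adjustment over all tested genes gives an adjusted p under 0.05. Nothing in the labels says that the libraries of a group came from separate cultures, so the p-values measure only the spread between these libraries, which may be technical. The 2 comparisons come from separate tables that share no library. The mitochondrial share of reads differed between groups, at 4.18% to 4.23% in SK-BR-3, 5.10% to 5.38% in SK/EPI, 3.58% to 3.68% in SK/EPI-siNC and 3.73% to 3.84% in SK/EPI-siBCRP. The summed level of 6 luminal epithelial markers (ERBB2, GRB7, KRT8, KRT18, KRT19 and EPCAM) was 2180 to 3732 FPKM in every library, and those of 4 fibroblast and 3 leukocyte markers did not exceed 1.61 and 1.26 FPKM. Single luminal markers went both ways. Mean ERBB2, which encodes HER2, was 659 FPKM in SK-BR-3, 133 in SK/EPI, 105 in SK/EPI-siNC and 96.8 in SK/EPI-siBCRP. GRB7 and KRT19 were also lower in SK/EPI than in SK-BR-3, whereas the means of KRT8, KRT18 and EPCAM were higher. Of the endothelial markers PECAM1 was near 0, with group means of at most 0.196 FPKM, whereas CDH5 was detected, at 6.77 FPKM in SK-BR-3, 27.5 in SK/EPI, 13.8 in SK/EPI-siNC and 22.2 in SK/EPI-siBCRP. CDH5 was thus higher in SK/EPI than in SK-BR-3 and in SK/EPI-siBCRP than in SK/EPI-siNC, and its part in the results was not tested.

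ABCG2, the target of the siRNA, served to check the labels. Its level was 0.075, 0.022 and 0.052 FPKM in the 3 SK-BR-3 libraries and 33.9, 35.9 and 32.7 FPKM in SK/EPI. In SK/EPI-siNC it was 32.5, 32.7 and 33.7 FPKM, and in SK/EPI-siBCRP 2.84, 3.47 and 2.91 FPKM, 10.7-fold lower than in the controls. Every library matched its label in this gene, which cannot tell SK/EPI from SK/EPI-siNC.

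The siRNA is shown first because matches to its seed (bases 2 to 8, in capitals) occur in some of the sterol genes, as in other genes. Its 25-base upper strand is identical to coding bases 1368 to 1392 of the ABCG2 transcript ENST00000237612.7, which lie on the minus strand at chr4:88115054-88118128 (GRCh38) and are split by an intron. The lower strand is the complement that pairs with the mRNA.
siBCRP #1 lower: aUAACCAGcugauucaaaguauccc
siBCRP #1 upper: gGGAUACUuugaaucagcugguuau

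Pairing with the seed of the lower strand requires the letters CTGGTTA in a transcript. In 1 coding transcript per gene (the principal isoform of GENCODE 29), they occur in the 3′ UTR of 3 of the 35 genes, namely HMGCS1, MVK and SOAT1, in the coding sequence of TM7SF2 and in the 5′ UTR of SQLE. Over 12960 coding genes tested, 8.51% held these letters in the 3′ UTR and 14.7% anywhere in the transcript, shares near those of the 35 genes. The 3′ UTR sites are given below with the match in capitals, since HMGCS1 and MVK are among the few genes of the pathway that fell after silencing. The letters AGTATCC, which pair with the seed of the upper strand, occur in the 3′ UTR of IDI1, LSS and SOAT1 and in the 5′ UTR of SQLE. The sites shown lie at chr5:43290247-43290253 (minus strand), chr12:109597161-109597167 (plus) and chr1:179355361-179355367 (plus).
HMGCS1: gaaacatttttCTGGTTActtttttaaaa
MVK: aggcggtgggcCTGGTTAaataaggcagg
SOAT1: tgcgctgagacCTGGTTAtgagcaagcca

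Promoters were taken from RefSeq (GRCh38.p14) as 300 bases, 250 before and 50 after each start, and 30 of the 35 genes had an entry. The motifs named here were searched on both strands. The CCAAT box, the letters CCAAT bound by NF-Y, a factor known to work beside SREBPs, was present for 22 of the 30 genes (73.3%) against 39.7% of the 27305 genes in the table. Among the synthesis enzymes it was present for 13 of 15, and 10 of them (66.7%) held at least 2 copies, against 12.9% of all genes. The GC box GGGCGG, bound by Sp1, was present for 28 of the 30, against 48.3% of all genes. The E-box CACGTG was found for ABCA1, INSIG1, LSS, SC5D and SCAP, 16.7% of the genes against 8.78%. A strict sterol regulatory element, TCACNCCAC, was found for SREBF2 alone, 133 bases before its RefSeq start, against 1.39% of all genes. The 27305 genes were not restricted to expressed or coding genes, so they are a background unlike the sterol genes. A match describes letters in this window and says nothing of binding. The bases shown begin 250 before the RefSeq start and stop before the GENCODE 29 gene start, which lies upstream of it, so that the last base shown is at -27 for SREBF2, -47 for MSMO1 and -103 for INSIG1. They are given for SREBF2, which holds the sterol element, for MSMO1, which holds 4 CCAAT boxes in its 300 bases, and for INSIG1, which rose most in both comparisons, with CCAAT boxes of either strand and the sterol element in capitals. They lie on the plus strand at chr22:41832855-41833078, chr4:165327419-165327622 and chr7:155297628-155297775.
SREBF2: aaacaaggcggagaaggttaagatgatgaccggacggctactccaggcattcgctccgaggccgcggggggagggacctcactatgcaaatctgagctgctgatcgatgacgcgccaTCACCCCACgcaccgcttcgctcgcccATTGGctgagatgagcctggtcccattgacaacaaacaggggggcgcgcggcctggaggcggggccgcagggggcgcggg
MSMO1: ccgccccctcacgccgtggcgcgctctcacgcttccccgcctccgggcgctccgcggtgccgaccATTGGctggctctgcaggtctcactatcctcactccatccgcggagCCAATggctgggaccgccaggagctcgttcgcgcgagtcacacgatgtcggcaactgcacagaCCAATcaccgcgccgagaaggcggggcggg
INSIG1: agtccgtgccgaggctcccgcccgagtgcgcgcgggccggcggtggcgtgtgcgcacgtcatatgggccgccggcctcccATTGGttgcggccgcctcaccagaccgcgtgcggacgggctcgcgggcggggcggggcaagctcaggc

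SK/EPI were compared with SK-BR-3 to describe how the pathway differs in resistant cells. The 35 genes did not move together. INSIG1, HMGCS1 and ABCG1 were higher in SK/EPI and SREBF1, PMVK and SCARB1 lower, each by more than 2-fold in FPKM. Of the 34 genes tested, 15 were called higher (44.1%, against 37.9% of all 15823 tested genes) and 11 lower (32.4%, against 37% of all genes). Their median log2 fold change was 0.07, beside 0.01 over all genes, so that these shares lie near the background of a comparison in which 74.9% of all genes were called in either direction. Counting only calls with an absolute log2 fold change of 0.5 or more, 9 were higher and 5 lower, where 18.4% and 18.2% of all genes were. In bulk RNA, fewer cells expressing a gene and less RNA per cell cannot be told apart.

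**Figure D1:**
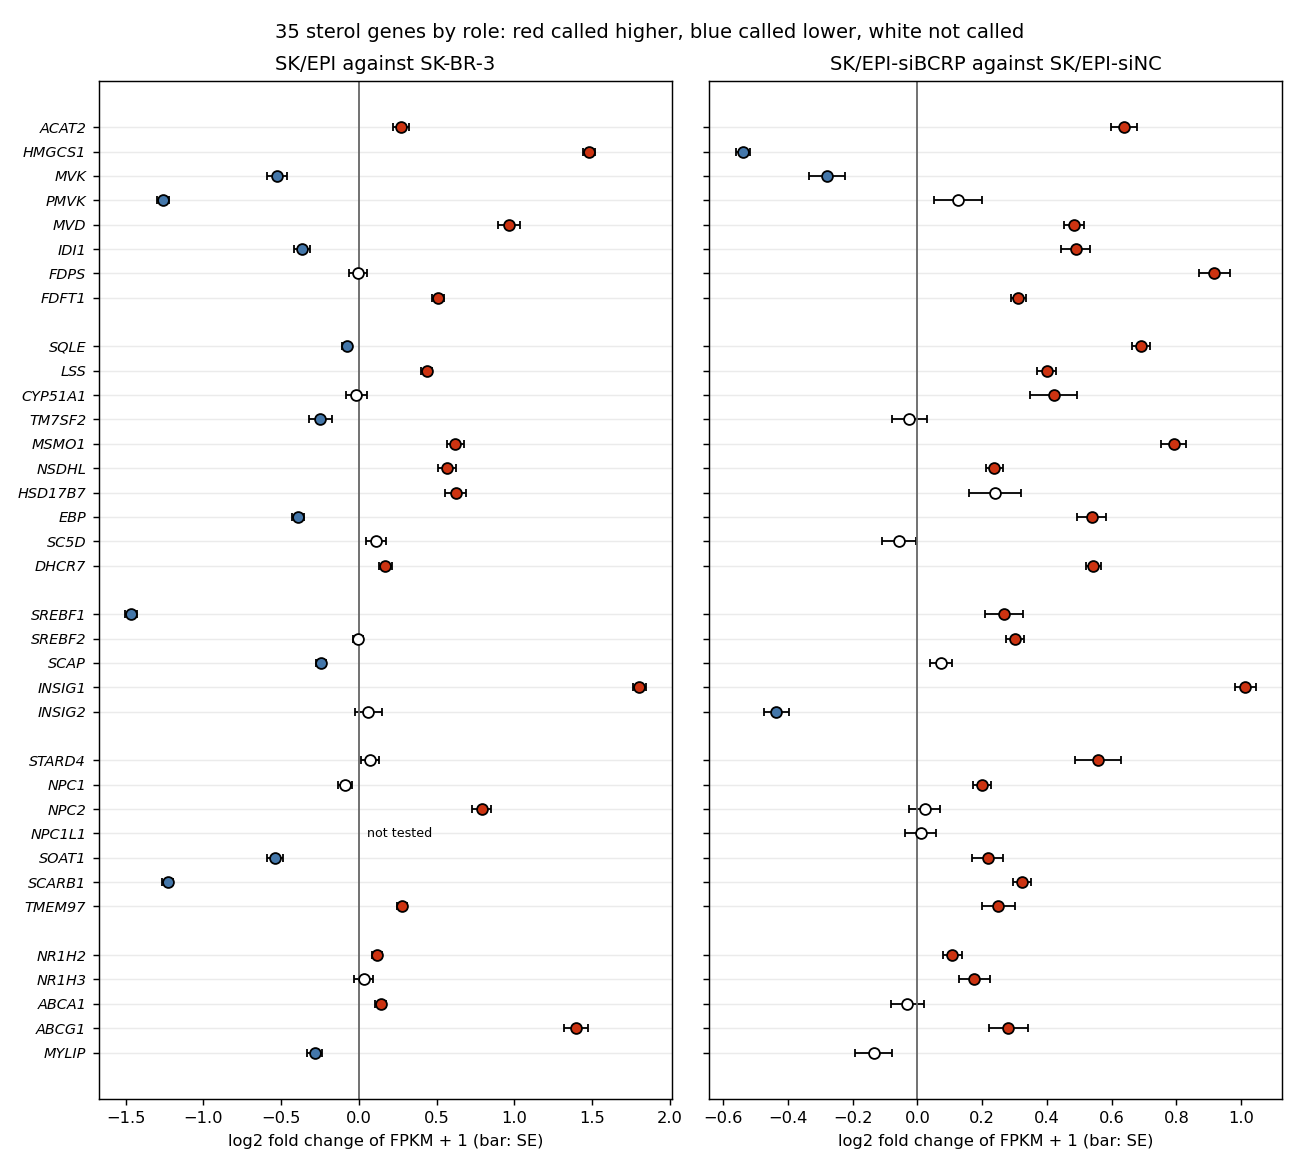
Log2 fold changes of FPKM + 1 (horizontal axis, bars are standard errors from limma, 3 libraries per group) of the 35 genes, in blocks from top to bottom of mevalonate steps, sterol steps, SREBP factors and sensors, uptake and storage, and LXR genes. Red marks genes called higher, blue called lower and white not called. In the left panel (SK/EPI against SK-BR-3) red and blue points are mixed, from -1.46 to 1.81, and in the right panel (SK/EPI-siBCRP against SK/EPI-siNC) 23 of 35 points are red and 3 blue.

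The factors and sensors held both the largest rise and the largest fall of the tested sterol genes. INSIG1, which holds SCAP in the endoplasmic reticulum, was 3.78, 3.76 and 3.54 FPKM in SK-BR-3 and 15.4, 15.7 and 15.1 FPKM in SK/EPI, 4.17-fold higher (log2 fold change 1.81 ± 0.04 SE, adjusted p = 9e-09, limma with Benjamini-Hochberg adjustment). All SK/EPI libraries lay above all SK-BR-3 libraries. INSIG2, its relative, was 5.31, 6.66 and 5.40 FPKM in SK-BR-3 and 6.16, 6.46 and 5.56 FPKM in SK/EPI, and the groups overlapped (adjusted p = 0.55, limma). The ratio of INSIG1 to INSIG2 was therefore 0.644 ± 0.074 (SD, n = 3) in SK-BR-3 and 2.55 ± 0.15 in SK/EPI. INSIG2 was the more abundant of the pair in the parental cells and INSIG1 in the resistant cells.

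SREBF1 went the other way. Its level was 68.2, 69.7 and 66.1 FPKM in SK-BR-3 and 22.8, 24.9 and 24.3 FPKM in SK/EPI, 2.83-fold lower (log2 fold change -1.46 ± 0.04 SE, adjusted p = 2e-08, limma with Benjamini-Hochberg adjustment), with no overlap between the groups. SREBF2 was 24.3, 23.98 and 24.5 FPKM in SK-BR-3 and 23.4, 24.9 and 24.1 FPKM in SK/EPI. Its groups overlapped and its fold change was -0.01 (adjusted p = 0.856, limma). This value turned to 0.08 with an adjusted p of 0.0439 when libraries were scaled by their reads on genes, to 0.09 with 0.0209 when the mitochondrial chromosome was left out, and to 0.08 with 0.0458 by voom. The ratio of SREBF2 to SREBF1, which scaling does not touch, was 0.357 ± 0.013 (SD, n = 3) in SK-BR-3 and 1.01 ± 0.02 in SK/EPI. SCAP, the escort of both factors, fell by 0.24 on the log2 scale, from 15.9 to 13.3 FPKM in the mean (adjusted p = 0.00018, limma).

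**Figure D2:**
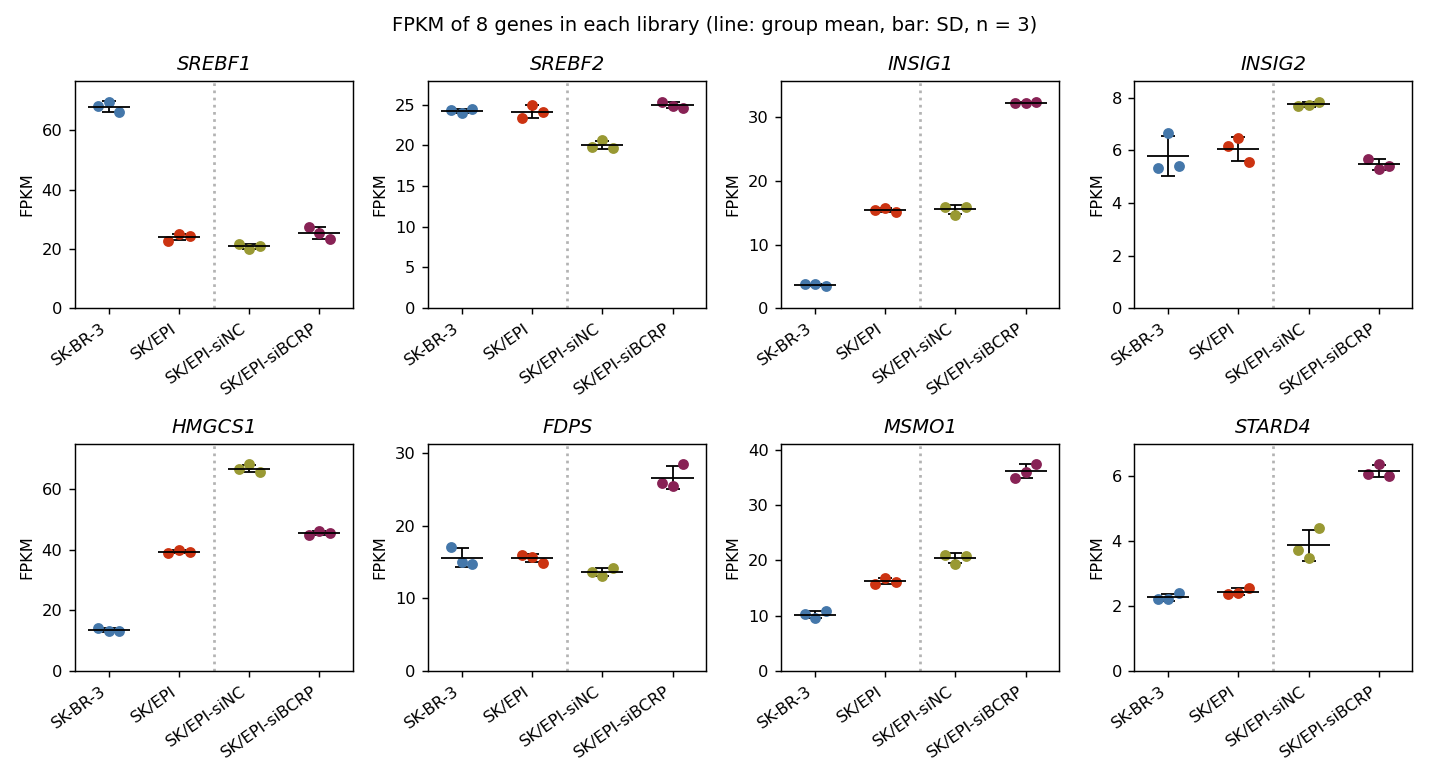
FPKM (vertical axis, from 0) of 8 genes in each of the 3 libraries of the 4 groups, with the group mean as a line and the SD as a bar; the dotted line separates the 2 tables, which were normalized separately. INSIG1 rises from a mean of 3.69 in SK-BR-3 to 15.4 in SK/EPI and from 15.5 in SK/EPI-siNC to 32.3 in SK/EPI-siBCRP, whereas HMGCS1 rises from 13.4 to 39.3 and then falls from 66.8 to 45.6.

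The mevalonate steps, from acetyl-CoA to squalene, split into 4 enzymes called higher, 3 lower and 1 not called (median log2 fold change 0.13). Thus 50% were higher and 37.5% lower, where 37.9% and 37% of all tested genes were. HMGCS1, which makes HMG-CoA, was 14.1, 13.0 and 13.2 FPKM in SK-BR-3 and 38.8, 39.9 and 39.4 FPKM in SK/EPI, 2.92-fold higher (log2 fold change 1.48 ± 0.04 SE, adjusted p = 1.4e-08, limma). PMVK, which phosphorylates phosphomevalonate, moved in the opposite direction, from 32.8, 31.1 and 31.6 FPKM to 13.2, 12.8 and 12.2 FPKM, 2.50-fold lower (adjusted p = 4.4e-08, limma). Neither gene had overlapping groups. MVD, the next enzyme after PMVK, was 2.13-fold higher (5.68, 5.35 and 4.47 FPKM against 10.9, 11.1 and 11.05). Neighbouring steps of 1 chain thus differed in direction.

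MVK, the kinase before PMVK, was 1.52-fold lower, at 8.78, 7.66 and 8.54 FPKM in SK-BR-3 and 5.10, 5.75 and 5.56 FPKM in SK/EPI. IDI1, which isomerizes isopentenyl diphosphate, was 1.32-fold lower, and FDFT1, the squalene synthase, and ACAT2, a thiolase at the head of the chain, were 1.45-fold and 1.23-fold higher. For ACAT2, 52.3% of its exonic bases also belong to genes on the opposite strand, from which these reads cannot be told apart if counting did not use the strand. FDPS, which makes farnesyl diphosphate, held 15.6 FPKM in the mean of either group and was not called (adjusted p = 0.972, limma).

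The 10 listed sterol steps, from squalene to cholesterol, counted 5 enzymes higher, 3 lower and 2 not called (median log2 fold change 0.14). These are 50% higher and 30% lower, against 37.9% and 37% of all tested genes. Their changes on the log2(FPKM + 1) scale were smaller, from -0.39 to 0.62. LBR, which carries a sterol reductase domain and is counted with the other sterol genes, was 2.70-fold lower. MSMO1, the C-4 methylsterol oxidase, was 10.2, 9.50 and 10.9 FPKM in SK-BR-3 and 15.8, 16.8 and 16.1 FPKM in SK/EPI, 1.59-fold higher. NSDHL, which acts with it in C-4 demethylation, was 1.52-fold higher, and LSS, the lanosterol synthase, 1.39-fold higher. HSD17B7, the ketoreductase of the same complex, rose 2.26-fold, from 0.778, 0.718 and 0.769 to 1.55, 1.95 and 1.63 FPKM, although it was the least abundant of the enzymes (59 to 168 reads per library). The 3 enzymes of C-4 demethylation therefore changed in 1 direction, but not by equal folds of FPKM. Their log2 fold changes lay between 0.57 and 0.62 because adding 1 to FPKM shrinks the change of the weakly expressed HSD17B7. Reads of HSD17B7 may also be split with 2 annotated pseudogenes.

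EBP, the sterol isomerase, was 1.33-fold lower, at 25.8, 24.5 and 23.3 FPKM in SK-BR-3 and 18.3, 18.2 and 18.8 FPKM in SK/EPI. DHCR7, the last reductase, was 1.13-fold higher. SQLE, the squalene epoxidase, was 32.6, 33.5 and 33.9 FPKM in SK-BR-3 and 31.4, 31.4 and 32.0 FPKM in SK/EPI, and its call (adjusted p = 0.0443, limma) was lost on leaving out either SK-BR-3 replicate 2 or 3 or any 1 SK/EPI library (adjusted p from 0.0704 to 0.119) or with at least 10 reads in every library (0.0569), and its sign turned with scaling by the reads on genes, without the mitochondrial chromosome and by voom. TM7SF2, a sterol reductase, was called lower, but not without SK/EPI replicate 1 (adjusted p = 0.0641, limma), with no filter on low genes (0.0608), with scaling by the reads on genes (0.0772) or without the mitochondrial chromosome (0.0989). SC5D and CYP51A1 were not called. SC5D was called higher without SK-BR-3 replicate 1 (adjusted p = 0.0409, limma), with scaling by the reads on genes (0.0325), without the mitochondrial chromosome (0.0246) and by voom (0.00909), and 83.2% of the exonic bases of CYP51A1 are shared with other annotated genes.

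**Figure D3:**
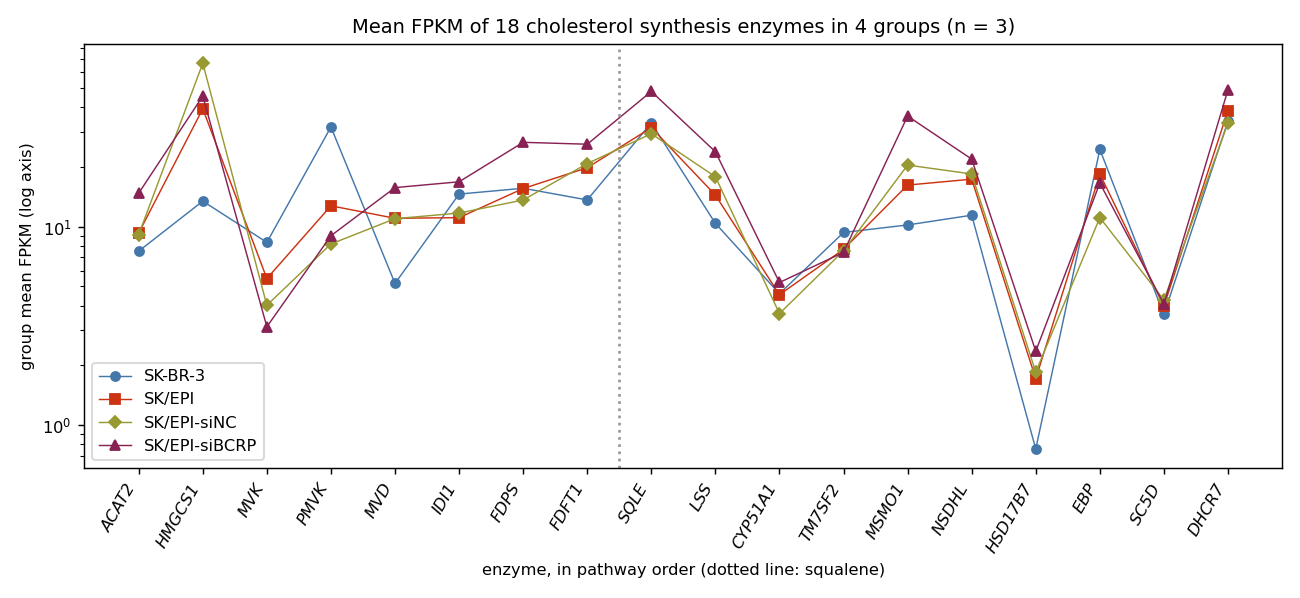
Mean FPKM (logarithmic vertical axis, n = 3 libraries) of the 18 synthesis enzymes in pathway order in the 4 groups, with a dotted line at squalene. SK-BR-3 lies below the other groups at ACAT2, HMGCS1, MVD, FDFT1, LSS, MSMO1, NSDHL, HSD17B7 and SC5D and above them at MVK, PMVK, TM7SF2 and EBP. SK/EPI-siBCRP lies above SK/EPI-siNC at most steps but below it at HMGCS1 and MVK and, by less, at TM7SF2 and SC5D.

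Of the 7 genes of uptake, transport and storage, 2 were called higher, 2 lower and 2 not called, and NPC1L1, the intestinal sterol transporter, was too low to be tested (4 to 20 reads per library). Of the 6 tested, 33.3% were higher and 33.3% lower, near the 37.9% and 37% of all tested genes. SCARB1, the scavenger receptor that takes up cholesteryl esters from HDL, was 50.9, 51.0 and 50.8 FPKM in SK-BR-3 and 20.3, 22.0 and 21.1 FPKM in SK/EPI, 2.41-fold lower (adjusted p = 2.6e-08, limma). NPC2, which hands lysosomal cholesterol to NPC1, rose from 9.83, 10.997 and 9.76 to 17.1, 19.2 and 18.8 FPKM, 1.80-fold. NPC1 was not called (adjusted p = 0.103, limma) and was called lower without SK-BR-3 replicate 1 (0.0389). SOAT1, which esterifies cholesterol for storage, was 1.59-fold lower, at 4.94, 5.15 and 5.21 against 3.08, 3.17 and 3.35 FPKM, and TMEM97, an NPC1-binding membrane protein, was 1.22-fold higher. Reads of TMEM97 may be split with 2 annotated pseudogenes. STARD4, a sterol carrier, was not called, and was called higher without the mitochondrial chromosome (log2 fold change 0.15, adjusted p = 0.049, limma).

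Among the LXR genes, ABCG1, a sterol exporter, was 1.64, 2.04 and 2.13 FPKM in SK-BR-3 and 6.35, 6.92 and 6.86 FPKM in SK/EPI, 3.47-fold higher (log2 fold change 1.40 ± 0.08 SE, adjusted p = 1.1e-06, limma). ABCA1, the other exporter, was called higher at a low level, with means of 0.106 and 0.219 FPKM. MYLIP, a ubiquitin ligase induced by LXRs, was 1.24-fold lower. The receptor NR1H2 was 1.09-fold higher and NR1H3, the other LXR, was not called. The exporters and MYLIP, all LXR targets, thus differed in direction.

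SK/EPI-siBCRP were compared with SK/EPI-siNC to find what changes when BCRP is silenced in the resistant cells. Here the genes moved largely upwards, led by INSIG1, FDPS and MSMO1. Of the 35 genes, all of which passed the filter on low values, 23 were called higher (65.7%), where 19.4% of all 16298 tested genes were, and 3 lower (8.57%), where 18.7% of all genes were. The median log2 fold change was 0.25, beside -0.004 over all genes. Counting only calls of 0.5 or more on the log2 scale, 8 were higher and 1 lower, where 2.05% and 2.85% of all genes were. Of all tested genes 38.1% were called in either direction. The genes that fell were HMGCS1, MVK and INSIG2.

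INSIG1 was 15.9, 14.7 and 15.9 FPKM in SK/EPI-siNC and 32.2, 32.2 and 32.4 FPKM in SK/EPI-siBCRP, 2.08-fold higher (log2 fold change 1.01 ± 0.03 SE, adjusted p = 3.2e-06, limma with Benjamini-Hochberg adjustment). INSIG2 was 7.67, 7.71 and 7.84 FPKM in SK/EPI-siNC and 5.68, 5.30 and 5.41 FPKM in SK/EPI-siBCRP, 1.42-fold lower (log2 fold change -0.44 ± 0.04 SE, adjusted p = 0.00014, limma). Neither gene had overlapping groups, and they moved in opposite directions. The ratio of INSIG1 to INSIG2 was 2.00 ± 0.09 (SD, n = 3) in SK/EPI-siNC and 5.92 ± 0.22 in SK/EPI-siBCRP.

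Both SREBP genes rose. SREBF2 was 19.8, 20.6 and 19.6 FPKM in SK/EPI-siNC and 25.4, 24.8 and 24.6 FPKM in SK/EPI-siBCRP, 1.24-fold higher (adjusted p = 0.00017, limma). SREBF1 was 21.7, 20.02 and 20.8 FPKM against 27.4, 25.4 and 23.2 FPKM, 1.22-fold higher (adjusted p = 0.0102, limma). The ratio of SREBF2 to SREBF1 was 0.962 ± 0.060 (SD, n = 3) in SK/EPI-siNC and 0.987 ± 0.068 in SK/EPI-siBCRP, a difference smaller than the spread between libraries. SCAP was not called (adjusted p = 0.137, limma).

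Of the 8 mevalonate enzymes, 5 were called higher, 2 lower and 1 not called (median log2 fold change 0.40). Thus 62.5% were higher and 25% lower, where 19.4% and 18.7% of all tested genes were. FDPS was 13.6, 13.1 and 14.2 FPKM in SK/EPI-siNC and 25.9, 25.5 and 28.5 FPKM in SK/EPI-siBCRP, 1.96-fold higher (log2 fold change 0.92 ± 0.05 SE, adjusted p = 1.4e-05, limma). Reads of FDPS may be split with 8 annotated pseudogenes, and 18.6% of its exonic bases lie opposite another gene. ACAT2 was 8.77, 9.49 and 9.09 FPKM against 14.4, 14.5 and 15.4 FPKM, 1.62-fold higher. MVD and IDI1 were both 1.44-fold higher and FDFT1 1.25-fold. PMVK was not called (adjusted p = 0.227, limma).

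HMGCS1 and MVK, both early in the chain, went against the others. HMGCS1 was 66.4, 68.1 and 65.7 FPKM in SK/EPI-siNC and 45.0, 46.2 and 45.6 FPKM in SK/EPI-siBCRP, 1.46-fold lower (log2 fold change -0.54 ± 0.02 SE, adjusted p = 6.8e-06, limma). MVK was 4.30, 3.95 and 3.78 FPKM against 3.15, 2.99 and 3.23 FPKM, 1.28-fold lower (adjusted p = 0.00705, limma). All SK/EPI-siBCRP libraries lay below all controls for both genes. The ratio of HMGCS1 to FDPS was 4.91 ± 0.28 (SD, n = 3) in SK/EPI-siNC and 1.72 ± 0.11 in SK/EPI-siBCRP. The 3′ UTR of both holds the match to the seed of the lower siRNA strand shown above.

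The relation of seed match and call was therefore counted over all genes, after these values had been seen. Among 12960 coding genes tested, 1103 (8.51%) had CTGGTTA in the 3′ UTR, and 43.6% of them were called lower after silencing, against 17.8% of those without it. Of the genes with the match 13.5% fell by at least 0.5 on the log2 scale, against 1.96% of those without. For the upper strand, whose match is AGTATCC, the shares called lower were 26.7% with a 3′ UTR match and 19.6% without. Transcripts with either match were longer, with median lengths of 5301 and 5332 bases for the lower and the upper strand, against 2976 and 3033 bases without. Of the 3 sterol genes with a 3′ UTR match to the lower strand HMGCS1 and MVK fell, and SOAT1 rose 1.22-fold (adjusted p = 0.0103, limma). The 3 with a 3′ UTR match to the upper strand, IDI1, LSS and SOAT1, were all called higher. Of the coding genes with this match 16.0% were called higher, against 23.1% without it, and of the 35 sterol genes 65.7%. INSIG2 fell and has no match to the lower strand in its transcript. The part of the seed match in the fall of HMGCS1 and MVK was not tested, and a second siRNA was not analysed here.

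**Figure D4:**
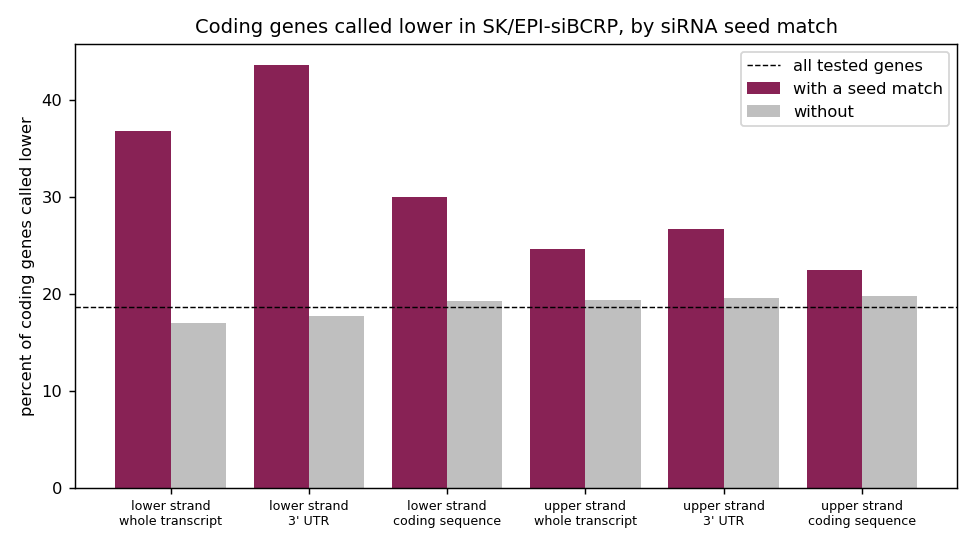
Percent of tested coding genes called lower in SK/EPI-siBCRP (vertical axis, from 0), with and without a match to the seed of either siRNA strand. Matches are counted in the whole transcript, the 3′ UTR or the coding sequence. The dashed line is the 18.7% called lower among all 16298 tested genes, coding or not, a wider set than that of the bars. The tallest bar is the 43.6% of genes with a match to the lower strand in the 3′ UTR.

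After squalene none of the listed sterol steps was called lower. LBR, which carries a sterol reductase domain and is counted with the other sterol genes, was called lower (1.40-fold). Of 10 sterol steps, 7 were called higher and 3 not called (median log2 fold change 0.41), SQLE, MSMO1, DHCR7 and EBP changing by at least 0.5. These are 70% higher and 0% lower, against 19.4% and 18.7% of all tested genes. MSMO1 was 21.1, 19.4 and 20.9 FPKM in SK/EPI-siNC and 34.9, 36.1 and 37.4 FPKM in SK/EPI-siBCRP, 1.77-fold higher (log2 fold change 0.79 ± 0.04 SE, adjusted p = 1.3e-05, limma). SQLE was 30.3, 29.3 and 28.8 FPKM against 46.9, 48.9 and 48.5 FPKM, 1.63-fold higher (adjusted p = 5.9e-06, limma). EBP was 1.49-fold higher, DHCR7 1.47-fold, CYP51A1 1.43-fold, LSS 1.34-fold and NSDHL 1.19-fold. For CYP51A1, 83.2% of exonic bases are shared with other annotated genes, and its reads may be split with 3 annotated pseudogenes. SC5D and TM7SF2 were not called, and HSD17B7, at an adjusted p of 0.0503 (limma), passed the threshold without SK/EPI-siNC replicate 2 (0.02), with at least 10 reads in every library (0.0395), with median-of-ratios scaling (0.0493) and by voom (0.00788).

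Of the 7 genes of uptake, transport and storage, 5 were called higher and none lower (median log2 fold change 0.22). The share called higher was 71.4%, where 19.4% of all tested genes were higher and 18.7% lower. STARD4 was 3.72, 3.47 and 4.39 FPKM in SK/EPI-siNC and 6.06, 6.35 and 6.01 FPKM in SK/EPI-siBCRP, 1.59-fold higher (adjusted p = 0.00093, limma). SCARB1 was 23.4, 23.1 and 22.9 FPKM against 30.0, 29.5 and 28.2 FPKM, 1.26-fold higher. TMEM97 was 1.20-fold higher, and NPC1 rose by 0.20 on the log2 scale. NPC2 and NPC1L1 were not called.

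Of the 5 blocks of sterol genes, the LXR genes had the smallest median log2 fold change (0.11), with none past 0.5. Over all tested genes only 2.05% were called higher and 2.85% lower at that size. ABCG1 was 1.92, 1.83 and 1.75 FPKM in SK/EPI-siNC and 2.58, 2.24 and 2.52 FPKM in SK/EPI-siBCRP, 1.33-fold higher (adjusted p = 0.0093, limma). NR1H3 and NR1H2 were called 1.19-fold and 1.08-fold higher, and each call was lost on leaving out any of several single libraries: NR1H3 without SK/EPI-siBCRP replicate 1 or 3 or any SK/EPI-siNC library (adjusted p from 0.0539 to 0.0749), NR1H2 without SK/EPI-siBCRP replicate 1 or 2 or SK/EPI-siNC replicate 1 or 3 (0.0662 to 0.0781) or with no filter on low genes (0.06). NR1H3 was also not called when a replicate block entered the limma fit (0.0627). ABCA1 was not called. MYLIP was not called and was called lower without SK/EPI-siNC replicate 3 (0.0374).

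Set side by side, 11 genes were called higher in both comparisons: ABCG1, ACAT2, DHCR7, FDFT1, INSIG1, LSS, MSMO1, MVD, NR1H2, NSDHL and TMEM97. They are 32.4% of the 34 genes tested in both, where 8.07% of all 15152 genes tested in both were called higher in both. The call of NR1H2 after silencing is among those lost without single libraries. A further 6 (17.6%, against 8.51% of all genes) were lower in SK/EPI than in SK-BR-3 and higher after silencing (EBP, IDI1, SCARB1, SOAT1, SQLE and SREBF1), of which SQLE had a call in SK/EPI that was lost without single libraries and a sign that turned under the 3 settings named above. HMGCS1 was higher in SK/EPI and lower after silencing, and MVK was lower in both. CYP51A1, FDPS, NPC1, NR1H3, SREBF2 and STARD4 were called higher after silencing and not called in SK/EPI, although SREBF2 and STARD4 were called there under the settings named above and the NR1H3 call after silencing was lost without single libraries. INSIG2 was called lower after silencing and not called in SK/EPI. The 32.4% and the 17.6% above also reflect the high share of the 35 genes called higher after silencing (65.7%, against 19.4% of all tested genes). The difference between the comparisons was not tested. SK/EPI and SK/EPI-siNC are the same cells without and with control transfection, in separately normalized tables. INSIG1 had nearly the same mean in them, 15.4 and 15.5 FPKM. HMGCS1 was 1.70 times higher in SK/EPI-siNC (39.3 and 66.8 FPKM) and ABCG1 3.66 times lower (6.71 and 1.83 FPKM), with no test across the tables.

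Further lists outside the 35 genes give the setting. Of 10 fatty acid synthesis targets of SREBP-1, 5 were higher and 4 lower in SK/EPI than in SK-BR-3 (50% and 40%, against 37.9% and 37% of all genes), and 7 were higher and 1 lower after silencing (70% and 10%, against 19.4% and 18.7%). ACLY, which makes cytosolic acetyl-CoA, was 131, 144 and 140 FPKM in SK-BR-3 and 87.6, 93.2 and 93.0 FPKM in SK/EPI, and it rose from 39.1, 38.7 and 36.9 FPKM in SK/EPI-siNC to 86.0, 90.9 and 90.5 FPKM in SK/EPI-siBCRP. SCD, the stearoyl-CoA desaturase, was 1.58-fold higher in SK/EPI and 1.93-fold higher after silencing. FASN, the fatty acid synthase, was 2.62-fold lower in SK/EPI, as SREBF1 was, and ACSL3, an acyl-CoA synthetase, 1.84-fold lower. FADS2, a desaturase, was at most 0.0114 FPKM in SK-BR-3 and at least 5.48 FPKM in SK/EPI. ME1, the malic enzyme, was the 1 target called lower after silencing (1.27-fold).

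Of 11 genes of the non-sterol branches of the mevalonate pathway, 5 were higher and 5 lower in SK/EPI (45.5% each), and 3 were higher and 1 lower after silencing (27.3% and 9.09%), against 37.9% and 37% of all genes in the first and 19.4% and 18.7% in the second comparison. PDSS1, which makes the ubiquinone side chain, was 2.98-fold lower in SK/EPI and 1.38-fold higher after silencing, and its partner PDSS2 was 1.30-fold lower after silencing. GGPS1, the geranylgeranyl diphosphate synthase, was 2.05-fold lower in SK/EPI, and RABGGTA and NUS1 were 1.81-fold and 1.29-fold higher. PGGT1B, a subunit of a prenyl transferase, was 1.25-fold higher after silencing.

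Of 16 other sterol genes, 13 were tested in SK/EPI against SK-BR-3, with 5 higher and 7 lower (38.5% and 53.8%, against 37.9% and 37% of all genes), and 14 after silencing, with 3 higher and 3 lower (21.4% each, against 19.4% and 18.7%). NCEH1, a cholesteryl ester hydrolase, was 44.6, 46.1 and 48.1 FPKM in SK-BR-3 and 8.11, 7.95 and 8.32 FPKM in SK/EPI, 5.69-fold lower, and was 1.73-fold higher after silencing. STARD3, an endosomal cholesterol binding protein whose gene neighbours ERBB2, was 4.22-fold lower in SK/EPI. GRAMD1A, a sterol transfer protein, and ERG28 were 2.52-fold and 1.39-fold higher. After silencing AACS, which activates acetoacetate, was 1.25-fold higher, and LBR, which carries a sterol reductase domain, and GRAMD1C were 1.40-fold and 1.42-fold lower.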

How the data were processed

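RNA was sequenced from poly-A selected libraries by the study's service provider. Per the labels and the submitters' processing notes, which name HISAT2 2.0.5, featureCounts 1.5.0-p3, DESeq2 1.16.1 and the genome build hg38, the authors deposited FPKM per gene, 1 table for SK-BR-3 and SK/EPI and 1 for the transfected cells. Strand use and the handling of shared reads in counting are not given in the sources used here. Deposited FPKM were whole multiples of 1 read, within a tolerance of 0.05 reads, for 100% of values with GENCODE 29 exon lengths, which gave the reads behind each value. A gene was tested if 3 or more of the 6 libraries reached 10 reads, scaled to the median library, and its reads summed to 15 or more. Within each table, log2(FPKM + 1) was fitted by limma 3.58.1 (R 4.3.3) with a trend, two-sided, with Benjamini-Hochberg adjustment over all tested genes. The fit was tested on simulated data. Folds are ratios of mean FPKM. From the lists outside the 35 genes, the 2 largest rises and falls among called genes with a group mean of at least 1 FPKM were named. LBR was named in SK/EPI in addition. The genes and lists were chosen with earlier results of these data known. Alternatives covered the filter, pseudocount, scaling, voom, the replicate block, thresholds and each library left out. Seed matches and promoter motifs were searched after the values were seen.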

Additional observations from a re-analysis of the deposited data

How the results depend on the processing

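The replicate numbers did not pair the libraries, since same-numbered libraries deviated from their group means with correlations between -0.05 and 0.06 over genes. With the replicate number as a block, 15 sterol genes were called higher and 10 lower in SK/EPI against SK-BR-3, and 23 higher and 3 lower after silencing. The block ended the calls of SQLE in SK/EPI (adjusted p = 0.0737) and of NR1H3 after silencing (0.0627) and made that of HSD17B7 after silencing, and changed no other call of the 35 genes; all are from limma with Benjamini-Hochberg adjustment.

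Scaling bears on the small changes in SK/EPI against SK-BR-3, where voom moved the median of all genes to 0.10 on the log2 scale. With scaling by the reads on genes, without the mitochondrial chromosome and by voom, in this order, the log2 fold changes turned from negative to 0.0783, 0.0939 and 0.0892 for FDPS, 0.00612, 0.0220 and 0.00627 for SQLE, 0.0554, 0.0694 and 0.0635 for CYP51A1 and 0.0753, 0.0911 and 0.0788 for SREBF2, and to 0.00319 for NPC1 without the mitochondrial chromosome alone. In SK-BR-3, reads on genes were 99.8% to 101% of the total by which the deposited FPKM were divided. In SK/EPI they were 92.8% to 95.4% of that total. The part of this difference in the turned signs was not tested. Under the first 2 settings 1 of the sterol steps was called lower in place of 3, and under all of them 2 of the factors and sensors were called higher in place of 1. After silencing, voom called MYLIP lower, hence 1 LXR gene in place of 0, together with 5 of the other sterol genes in place of 3 and 3 genes of the non-sterol branches in place of 1, which became 2 with scaling by the reads on genes and 0 with no filter on low genes.

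Requiring a log2 fold change of 0.5 left, in SK/EPI against SK-BR-3, 2919 genes higher and 2884 lower, and of the sterol genes 9 and 5. Counts higher and lower were 3 and 2 for the mevalonate steps, 3 and 0 for the sterol steps and 1 and 1 for the factors and sensors. They were 1 and 2 for uptake and storage and 1 and 0 for the LXR genes. The other sterol genes had 2 and 5, the non-sterol branches 1 and 3 and the fatty acid targets 4 and 3. After silencing the same cut left 334 and 464 genes, and of the sterol genes 8 and 1. Counts were 2 and 1 for the mevalonate steps, 4 and 0 for the sterol steps and 1 and 0 for the factors and sensors. They were 1 and 0 for uptake and storage and 0 and 0 for the LXR genes. The other sterol genes had 1 and 0, the non-sterol branches 0 and 0 and the fatty acid targets 3 and 0. An adjusted p under 0.01 left 2020 genes higher and 1833 lower after silencing, 1 LXR gene higher and 0 genes of the non-sterol branches lower, and 1 sterol step lower in SK/EPI.

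Leaving out single libraries gave 15 to 16 sterol genes higher and 9 to 12 lower in SK/EPI, with 1 to 3 sterol steps lower, and 21 to 23 higher and 3 to 4 lower after silencing, with 1 to 2 LXR genes higher and 0 to 1 lower, and 0 to 1 genes of the non-sterol branches lower. Genes that were not called changed sign, with ranges of -0.0599 to 0.0390 for CYP51A1, -0.0369 to 0.0598 for FDPS, -0.000296 to 0.0673 for NR1H3 and -0.0285 to 0.0142 for SREBF2 in SK/EPI, and of -0.0695 to 0.00855 for ABCA1, -0.0128 to 0.0431 for NPC1L1, -0.0181 to 0.0663 for NPC2 and -0.0547 to 0.0335 for TM7SF2 after silencing.

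Depth limits NPC1L1, ABCA1 and HSD17B7 most, with at most 267 reads in any library.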
